A study of Saccharomyces cerevisiae with 24 samples.

Results

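The strain by limitation interaction asks, gene by gene, whether loss of SNF1 moves a transcript by a different amount under nitrogen (N) limitation than under carbon (C) limitation. It was computed as (snf1 N minus ref N) minus (snf1 C minus ref C) from the 12 arrays at high inositol-choline, of 24 arrays in the series, for 5449 genes of Saccharomyces cerevisiae with 1 probe set each. A positive interaction means that the snf1 minus ref difference was higher under N than under C limitation. The 4 groups hold 3 arrays each: the snf1 mutant under N limitation (snf1 N), the reference strain under N limitation (ref N), the snf1 mutant under C limitation (snf1 C) and the reference strain under C limitation (ref C). All were chemostat cultures, grown on minimal medium with the high level of inositol and choline and sampled at steady state. Total RNA was labelled with biotin, and each sample was hybridised to 1 Affymetrix yeast array. The remaining 12 arrays are the same 4 groups at low inositol-choline. The sources used here do not give the amounts behind high and low, the dilution rate, the strain background or the number of mutant clones.

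Snf1 is the catalytic subunit of yeast's AMP-activated protein kinase. It is known for releasing genes from glucose repression when glucose is scarce: it inhibits the repressor Mig1 and activates factors such as Cat8, Sip4 and Adr1, which switch on gluconeogenesis, the glyoxylate cycle and fatty acid oxidation. It also inhibits acetyl-CoA carboxylase, the entry enzyme of fatty acid synthesis. C-limited chemostats hold residual glucose very low, whereas N-limited chemostats leave glucose in excess, so the limitation sets the background on which the kinase is removed.

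Values are expression levels on a log scale, taken as log2, and errors after ± are standard errors from limma with n = 3 arrays per group. SNF1 itself read 4.99, 4.98 and 4.97 on the snf1 N arrays and 7.09, 7.93 and 8.47 on the ref N arrays, against 4.97, 5.0 and 4.99 on the snf1 C arrays and 8.30, 8.33 and 8.15 on the ref C arrays. It lay at background on the 6 snf1 arrays. For the 3 snf1 N arrays the description repeats the C-limited text, and the title, which says N, was used. On these and the ref N arrays, all 11 nitrogen markers tested lay above every C-limited array, the permease gene DAL5 at 11.55 to 11.72 and 11.68 to 11.97, against 6.83 to 6.97 on snf1 C and 6.96 to 7.07 on ref C arrays. Replicates differed more under N limitation: the standard deviation over genes of the difference between replicates reached 0.494 in snf1 N and 0.522 in ref N, against 0.0727 in snf1 C and 0.148 in ref C. The gap between 3' and 5' signal of 7 control genes, a measure of RNA integrity, moved with the replicate number, at 2.67, 1.68 and 1.23 on snf1 N and 2.74, 1.55 and 1.12 on ref N arrays, against 1.14 to 1.25 on snf1 C and 0.915 to 0.983 on ref C arrays. Under C limitation that gap was wider in snf1 than in ref, without overlap. The spike-in control dap also separated the C-limited strains, at 6.78 to 7.28 on snf1 C and 6.17 to 6.67 on ref C arrays. The spike-in control bioB did so too, at 7.61 to 8.19 and 6.36 to 7.34. Under N limitation the strains overlapped in both controls. Whether the spike-in difference bears on the C-limited calls was not tested. Same-numbered N-limited arrays deviated together, mostly with replicate 1 apart from replicates 2 and 3 in both strains. Counts are therefore given from the unblocked fit and from a fit with the replicate number as a block within each limitation. The labels do not say that replicates were separate cultures, so the spread that p-values measure is that between these samples and may be technical.

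The strain difference depended on the limitation for a large set of genes, and the C-limited side carried most of it. The interaction was called for 614 of 5449 genes (11.3%) at a limma adjusted p under 0.05, higher for 351 (6.44%) and lower for 263 (4.83%). With the replicate block it was called for 2052 genes (37.7%), 851 higher (15.6%) and 1201 lower (22.0%), and all 614 were among them. The block thus turned the share of higher calls to 41.5%, against 57.2% without it. Within N limitation 57 genes (1.05%) were called between snf1 and ref, 39 higher (0.716%) and 18 lower (0.33%), and within C limitation 1132 (20.8%), 580 higher (10.6%) and 552 lower (10.1%). With the block the N-limited count was 528 (9.69%), 245 higher (4.5%) and 283 lower (5.19%), and the C-limited one 2840 (52.1%), 1637 higher (30.0%) and 1203 lower (22.1%). With only the 6 arrays of one limitation in a fit the counts were 5 and 3186. With the 3' minus 5' signal as a covariate the interaction was called for 787 genes higher and 1047 lower. The C-limited difference was the larger one in 580 of the 614 called genes (94.5%). Without regard to calls, 15 genes differed at least 2-fold between strains under N limitation and 207 under C limitation.

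Large interactions ran mostly one way. Among called genes 165 had a positive interaction of at least 2-fold and 28 a negative one, and at 4-fold the counts were 52 and 2. The commonest pattern, in 313 genes, was a positive interaction with lower expression in snf1 C than in ref C and no call under N limitation. Its mirror image, higher expression in snf1 C with no call under N limitation, held 233 genes. With the block the order turned round, at 632 and 957 genes. In the same limma fit of 1746 background probe sets, which match no S. cerevisiae gene, 0 were called for the interaction and 82 had an unadjusted p under 0.05. With the block 0 were called and 120 had an unadjusted p under 0.05. As these probe sets define the background, they do not show how often expressed genes were falsely called. Of the 614 called genes, 18 were at the background level on all 6 N-limited arrays, where levels are only bounds.

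**Figure D1:**
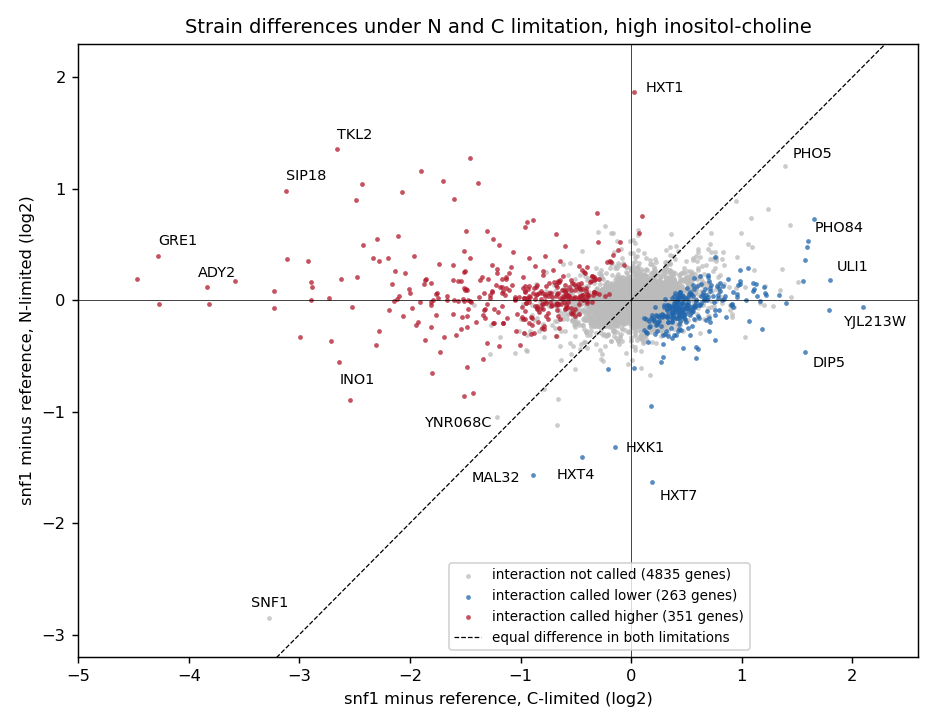
Snf1 minus reference difference under N limitation (vertical axis, log2) against that under C limitation (horizontal axis, log2) for 5449 genes at high inositol-choline; red points are called higher for the interaction (351), blue points lower (263), grey points are not called, and the dashed line marks equal differences. Most red points lie left of 0 near the horizontal line, with C-limited differences down to -4.47 (SPS100), whereas HXT1, HXT7 and HXK1 lie near the vertical line, and SNF1 and PHO5 lie near the dashed one.

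The largest positive interactions included several small stress proteins with far higher levels on the ref C arrays than on the snf1 C arrays. Of the hydrophilins and respiratory growth factors, small protective proteins and mitochondrial factors that yeast makes as glucose runs out, 14 of 15 tested members were called higher, against 6.44% of all genes, and none lower (15 and 0 with the block). This list, like the others, was chosen with earlier results of these data known, so its share is no independent test of enrichment. The list's median interaction was 1.58, against -0.04 over all genes, and was made of a median difference of 0.19 under N and -1.24 under C limitation. GRE1, a stress-induced hydrophilin, read 6.10, 6.22 and 6.17 on snf1 N and 5.83, 5.79 and 5.67 on ref N arrays, and 7.26, 7.44 and 7.38 on snf1 C and 11.63, 11.59 and 11.70 on ref C arrays. The ref C arrays stand far above all others, and under N limitation the snf1 arrays lie a little above the ref arrays without overlap. Its interaction was 4.68 ± 0.10 (limma adjusted p = 5.63e-10).

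SIP18, a phospholipid-binding hydrophilin, read 7.47, 6.98 and 6.70 on snf1 N and 6.24, 5.98 and 5.98 on ref N arrays, and 8.27, 8.38 and 8.37 on snf1 C and 11.45, 11.45 and 11.49 on ref C arrays. All 3 snf1 N arrays exceed all 3 ref N arrays, whereas under C limitation the order of the strains is turned round. The interaction was 4.11 ± 0.23 (limma adjusted p = 8.06e-07). RGI2, a factor of respiratory growth, was at background on all 6 N-limited arrays, and read 7.03, 7.08 and 7.07 on the snf1 C and 10.89, 10.87 and 10.88 on the ref C arrays. SPG1, needed for survival at high temperature in stationary phase, had an interaction of 3.31 ± 0.11. SPS100, a spore wall protein gene, read 6.63, 6.23 and 6.22 on snf1 N and 6.54, 5.93 and 6.02 on ref N arrays, and 5.96, 5.87 and 5.96 on snf1 C and 10.43, 10.39 and 10.38 on ref C arrays. Only the ref C arrays were high, and the interaction was 4.66 ± 0.22. The uncharacterised gene YDL218W was at background in snf1 N, ref N and snf1 C and read 9.76, 8.86 and 9.86 on the ref C arrays, so that it was at least 14.9-fold lower in snf1 C than in ref C. SHH3, which encodes a homologue of a succinate dehydrogenase subunit, had an interaction of 3.48 ± 0.10.

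Genes for growth on acetate, ethanol and other non-fermentable carbon followed the same course. Of the list of gluconeogenesis, the glyoxylate cycle and organic acid uptake, 13 of 20 tested members were called higher and 1 lower (14 and 2 with the block). The shares over all genes were 6.44% and 4.83% (15.6% and 22.0% with the block). In snf1 C 15 members were lower than in ref C, against 10.1% of all genes, and 1 was higher. The median interaction was 1.59 and the median C-limited difference -1.62, while the median N-limited difference was -0.00060. ADY2, an acetate transporter, read 5.37, 5.31 and 5.40 on snf1 N and 5.21, 5.21 and 5.32 on ref N arrays, and 5.44, 5.43 and 5.51 on snf1 C and 9.29, 9.27 and 9.33 on ref C arrays. It was at background in every group but ref C and was at least 13-fold lower in snf1 C than in ref C. FBP1, the fructose-1,6-bisphosphatase of gluconeogenesis, was at background on all N-limited arrays and read 5.61, 5.64 and 5.55 on the snf1 C and 7.77, 7.61 and 7.87 on the ref C arrays.

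ICL1, the isocitrate lyase that opens the glyoxylate cycle, read 6.50, 6.71 and 6.40 on snf1 N and 6.65, 6.60 and 6.55 on ref N arrays, and 6.55, 6.53 and 6.50 on snf1 C and 9.02, 9.06 and 9.08 on ref C arrays. High values were confined to ref C, and the interaction was 2.46 ± 0.11 (limma adjusted p = 1.73e-07). MLS1, the malate synthase of the same cycle, read 9.38, 9.66 and 9.50 on snf1 N and 9.48, 10.01 and 10.05 on ref N arrays, and 5.80, 5.81 and 5.77 on snf1 C and 8.71, 8.80 and 8.86 on ref C arrays. Here the N-limited arrays of both strains all lie above the ref C arrays, and only snf1 C was low. The interaction was 2.66 ± 0.19 (limma adjusted p = 5.52e-06), with a difference of -0.33 ± 0.14 under N (adjusted p = 0.510, 0.0229 with the block) and -3.0 ± 0.14 under C limitation. IDP2, a cytosolic isocitrate dehydrogenase, had 2.36 ± 0.15, and in the methylcitrate cycle of propionate use 2 of 3 members were called higher (3 with the block), CIT3 at 1.33 ± 0.09 and ICL2 at 1.47 ± 0.19. CIT2, the peroxisomal citrate synthase and a target of the retrograde pathway, was the exception. It read 10.56, 10.60 and 10.50 on snf1 N and 9.99, 10.10 and 10.13 on ref N arrays, and 11.01, 10.96 and 10.96 on snf1 C and 9.38, 9.39 and 9.37 on ref C arrays. The snf1 arrays exceed the ref arrays in both limitations, by 0.48 ± 0.06 under N and 1.59 ± 0.06 under C limitation, so its interaction was -1.11 ± 0.08 (limma adjusted p = 6.87e-06).

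Regulators of these genes were examined next. SIP4, an activator of gluconeogenic genes, read 5.84, 5.66 and 5.74 on snf1 N and 5.98, 5.63 and 5.61 on ref N arrays, and 5.92, 5.90 and 5.93 on snf1 C and 7.64, 7.62 and 7.5 on ref C arrays. Every ref C array lies above the rest, and the interaction was 1.67 ± 0.14. CAT8, the activator above SIP4, had an interaction of 0.63 ± 0.11 (limma adjusted p = 0.00299) with a C-limited difference of -0.77 ± 0.08. ADR1, the activator of ADH2 and of fatty acid oxidation genes, had an interaction of 0.61 ± 0.18 that was not called (limma adjusted p = 0.0537) but was with the block (adjusted p = 0.00337). Of the list of the kinase, its upstream kinases, phosphatase and repressors, 3 of 17 members were called higher and 1 lower (3 and 6 with the block). The shares over all genes were 6.44% and 4.83% (15.6% and 22.0% with the block). SIP2, a beta subunit of the kinase, had 0.73 ± 0.15, REG2, a phosphatase regulator, 0.76 ± 0.14 and MIG3, a repressor related to Mig1, 0.62 ± 0.10. TOS3, a kinase upstream of Snf1, had -0.65 ± 0.11. The gamma subunit SNF4, at an interaction of -0.20 ± 0.11 (adjusted p = 0.396), and the repressor MIG1, at an adjusted p of 0.9795, were not called.

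Fatty acid breakdown showed the pattern in nearly the whole pathway. Of the beta-oxidation enzymes and the carnitine shuttle, which carries acetyl units into mitochondria, 15 of 21 members were called higher and none lower (18 and 1 with the block). The median interaction was 1.12, with 0.01 under N and -1.08 under C limitation, and 18 members fell in snf1 C. POT1, the thiolase of the pathway, read 6.29, 6.47 and 6.26 on snf1 N and 6.45, 6.38 and 6.23 on ref N arrays, and 7.56, 7.51 and 7.52 on snf1 C and 9.28, 9.24 and 9.49 on ref C arrays. The ref C arrays were highest, the snf1 C arrays were intermediate and the strains overlap under N limitation. The interaction was 1.79 ± 0.13 (limma adjusted p = 5.39e-06). FOX2, the multifunctional enzyme, had 1.39 ± 0.11, and PXA1, part of the peroxisomal fatty acyl transporter, 1.72 ± 0.11. CTA1, the peroxisomal catalase, was at background on all N-limited arrays and read 7.41, 7.39 and 7.42 in snf1 C and 9.41, 9.41 and 9.34 in ref C. Of 24 peroxisome biogenesis genes 1 was called higher, against 6.44% of all genes, PEX18 at 0.94 ± 0.09, an import receptor for thiolase, and none lower (4 and 2 with the block). PEX18 was above background on the ref C arrays only.

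**Figure D2:**
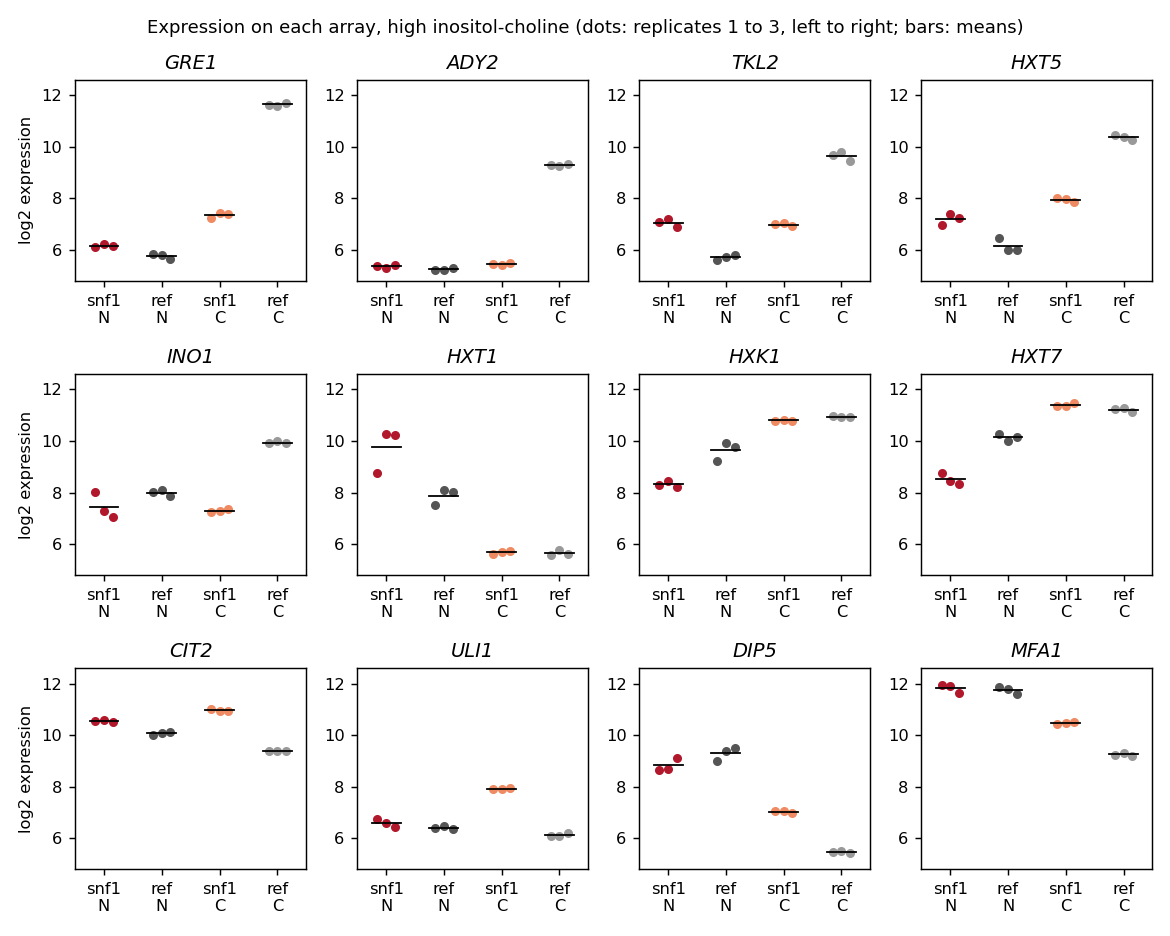
Expression (log2) of 12 genes on each array at high inositol-choline, in the order snf1 N, ref N, snf1 C, ref C; dots are the 3 arrays of a group and bars their means. GRE1, ADY2, TKL2, HXT5 and INO1 are highest in ref C. In HXT1, HXK1 and HXT7 the strains differ far less under C than under N limitation. CIT2, ULI1, DIP5 and MFA1 are higher in snf1 C than in ref C.

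Most reserve carbohydrate and stress genes were lower in snf1 C than in ref C as well, 16 of 21 and 20 of 35, against 10.1% of all genes, with 1 higher in each list. Of 21 genes of glycogen and trehalose metabolism 13 were called higher for the interaction and 1 lower (17 and 1 with the block), with a median of 0.59. PGM2, the main phosphoglucomutase, read 7.56, 7.99 and 7.77 on snf1 N and 7.65, 7.99 and 8.12 on ref N arrays, and 7.49, 7.55 and 7.51 on snf1 C and 9.10, 9.12 and 8.91 on ref C arrays. Levels were high in ref C, and in the other groups lay between 7.49 and 8.12, giving 1.38 ± 0.19. ATH1, the acid trehalase, had 1.29 ± 0.18, TSL1, a subunit of trehalose synthase, 0.84 ± 0.12, and GLG1, the glycogen primer, 0.56 ± 0.09. The lower member was PGM1, the minor phosphoglucomutase, at -0.89 ± 0.23, a call lost in 8 of 24 alternatives (adjusted p up to 0.0837).

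Of 35 general stress and heat shock genes 20 were called higher and 1 lower (25 and 2 with the block). Among all genes the shares were 6.44% and 4.83% (15.6% and 22.0% with the block). The list had medians of 0.82 for the interaction, 0.01 under N and -0.87 under C limitation. SSA3, a stress-inducible Hsp70, read 7.58, 7.31 and 7.02 on snf1 N and 7.36, 7.09 and 6.95 on ref N arrays, and 7.71, 7.75 and 7.67 on snf1 C and 11.33, 11.34 and 11.20 on ref C arrays. Expression in ref C stands apart, with an interaction of 3.75 ± 0.19. SSA4, another inducible Hsp70, had 2.06 ± 0.09 and DDR2, a multistress gene, 2.11 ± 0.13. MSN4, which encodes an activator of many stress genes, was the lower member. It read 7.37, 7.39 and 7.45 on snf1 N and 7.69, 7.73 and 7.79 on ref N arrays, and 6.95, 6.93 and 6.91 on snf1 C and 6.63, 6.65 and 6.39 on ref C arrays. Its snf1 arrays lie below ref under N limitation and above it under C limitation, for an interaction of -0.70 ± 0.11 (limma adjusted p = 0.00133).

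The alcohol dehydrogenase genes ADH2 and ADH1 had interactions of opposite sign. ADH2, the alcohol dehydrogenase that consumes ethanol, read 6.28, 5.96 and 5.93 on snf1 N and 6.17, 6.08 and 5.92 on ref N arrays, and 9.33, 9.48 and 9.41 on snf1 C and 12.33, 12.31 and 12.28 on ref C arrays. It was low under N limitation and high in ref C, and the interaction was 2.90 ± 0.14 (limma adjusted p = 2.89e-07). ADH1, the isoenzyme that makes ethanol, read 12.04, 11.89 and 11.91 on snf1 N and 12.05, 11.94 and 12.07 on ref N arrays, and 12.07, 12.07 and 12.07 on snf1 C and 11.56, 11.58 and 11.59 on ref C arrays. Its ref C arrays were the lowest of all, and the interaction was -0.56 ± 0.09. Of the 14 alcohol, aldehyde and formate dehydrogenase genes 4 were called higher and 3 lower, against 6.44% and 4.83% of all genes (5 and 7 with the block). ALD3, a cytosolic aldehyde dehydrogenase, at 1.18 ± 0.19, PDC6, a minor pyruvate decarboxylase, at 1.27 ± 0.21, and FDH1, formate dehydrogenase, at 1.58 ± 0.13, were higher, and ADH5 was lower at -0.60 ± 0.11. FDH1 has a near-identical copy that the array may not tell apart.

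In 19 genes the strains were called different in opposite directions, higher in snf1 than in ref under N and lower under C limitation. One gene, NRK1, a nicotinamide riboside kinase, was called the reverse way, at -0.56 ± 0.08 under N and 0.27 ± 0.08 under C limitation. With the block these counts were 85 and 77. MSN4, described above, had the same order of strains as NRK1, but was not called in both limitations in the unblocked fit. TKL2, the minor transketolase of the pentose phosphate pathway, read 7.10, 7.21 and 6.89 on snf1 N and 5.62, 5.72 and 5.79 on ref N arrays, and 7.0, 7.03 and 6.92 on snf1 C and 9.69, 9.79 and 9.45 on ref C arrays. The strains do not overlap in either limitation. TKL2 was 1.35 ± 0.11 in snf1 relative to ref under N limitation (limma adjusted p = 1.41e-04) and -2.66 ± 0.11 under C limitation (adjusted p = 3.28e-08), so the interaction was 4.01 ± 0.15.

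HXT5, a hexose transporter of slow-growing cells, read 6.99, 7.39 and 7.24 on snf1 N and 6.45, 6.02 and 6.01 on ref N arrays, and 8.0, 7.96 and 7.87 on snf1 C and 10.47, 10.39 and 10.27 on ref C arrays. Again every snf1 N array exceeds every ref N array, and every snf1 C array lies below every ref C array. Its differences were 1.04 ± 0.13 and -2.43 ± 0.13 under N and C limitation. Among the 19 genes were also MSC1, at 0.55 ± 0.09 and -2.30 ± 0.09 under N and C limitation, and PIR3, a cell wall protein gene, at 0.70 ± 0.09 and -0.94 ± 0.09. MMP1, a permease for S-methylmethionine, differed little under C limitation, at 0.78 ± 0.07 and -0.31 ± 0.07. GRE1, SHH3, SIP18, SSA4 and DDR2, described above, belong to the same set.

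In a small group the strain difference was called under N limitation alone. The fit gives both differences of a gene the same error, although replicates differed more under N limitation. With only the 6 arrays of one limitation in a fit, 5 genes were called under N and 3186 under C limitation. A missing C-limited call here therefore does not show that the strains were equal. Called for the interaction and for the N-limited difference but not for the C-limited one were 6 genes higher and 5 lower (37 and 48 with the block), among them 4 genes of sugar uptake and phosphorylation. HXT1, the low-affinity glucose transporter that yeast makes at high glucose, read 8.75, 10.28 and 10.22 on snf1 N and 7.53, 8.11 and 8.03 on ref N arrays, and 5.64, 5.70 and 5.72 on snf1 C and 5.58, 5.78 and 5.62 on ref C arrays. The snf1 N arrays all exceed the ref N arrays, with replicate 1 lowest in both strains, and the C-limited strains overlap near background. The difference was 1.87 ± 0.34 under N limitation (limma adjusted p = 0.0262) and the interaction 1.83 ± 0.47 (adjusted p = 0.0301, 1.12e-04 with the block). Its interaction call was lost in 8 of 24 alternatives, at adjusted p up to 0.0792.

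HXT7, a high-affinity glucose transporter, read 8.76, 8.45 and 8.35 on snf1 N and 10.27, 10.02 and 10.17 on ref N arrays, and 11.37, 11.37 and 11.46 on snf1 C and 11.23, 11.28 and 11.12 on ref C arrays. It was lowest on the snf1 N arrays, and the strain difference was -1.63 ± 0.11 under N and 0.19 ± 0.11 under C limitation. All snf1 C arrays lie above all ref C arrays, although that difference was not called. The interaction of HXT7 was -1.82 ± 0.15 (limma adjusted p = 1.54e-05). HXT6 is nearly identical to HXT7 and was not measured apart. HXK1, a hexokinase repressed by glucose, read 8.30, 8.45 and 8.23 on snf1 N and 9.24, 9.91 and 9.78 on ref N arrays, and 10.78, 10.82 and 10.79 on snf1 C and 10.96, 10.94 and 10.92 on ref C arrays. All snf1 N arrays lie below all ref N arrays, at a difference of -1.32 ± 0.14, with an interaction of -1.17 ± 0.20. The snf1 C arrays also lie below all ref C arrays, at a difference of -0.14 that was not called. HXT4, another high-affinity transporter, had -1.41 ± 0.17 under N and -0.44 ± 0.17 under C limitation (adjusted p = 0.0966, 3.12e-04 with the block), where the snf1 C arrays also lie below all ref C arrays, and an interaction of -0.96 ± 0.24, a call lost in 6 of 24 alternatives (adjusted p up to 0.0659). Of 17 hexose transporters and sensors, 8 of which averaged below background, 2 were called higher, HXT5 and HXT1, and 2 lower, HXT7 and HXT4. With the block 4 were higher and 3 lower. The shares over all genes were 6.44% and 4.83% (15.6% and 22.0% with the block).

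HAP4, the activating subunit of the complex that drives respiratory genes, belonged to the same pattern. It read 8.88, 8.65 and 8.59 on snf1 N and 9.26, 9.36 and 9.32 on ref N arrays, and 9.52, 9.48 and 9.51 on snf1 C and 9.55, 9.53 and 9.35 on ref C arrays. The snf1 N arrays were lowest and the C-limited strains overlap, and the interaction was -0.63 ± 0.12 (limma adjusted p = 0.0051). MIG3 was 0.52 ± 0.07 under N and -0.10 ± 0.07 under C limitation. The fifth gene called lower under N limitation alone was AGX1, an alanine:glyoxylate aminotransferase, named here after its values were seen. Its difference was -0.62 under N limitation and -0.21 under C limitation, where it was not called.

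Of 13 genes of sucrose, maltose and galactose use 2, MAL32 and MAL11, were called lower in snf1 under N limitation, and 6 under C limitation. Among all genes the shares called lower were 0.33% and 10.1%. MAL32, a maltase whose near-identical copy MAL12 was not measured apart, read 6.64, 6.36 and 6.49 on snf1 N and 8.14, 7.96 and 8.10 on ref N arrays, and 8.47, 8.34 and 8.31 on snf1 C and 9.25, 9.32 and 9.20 on ref C arrays. The strains do not overlap in either limitation, and the deficit was larger under N (-1.57 ± 0.09) than under C limitation (-0.89 ± 0.09), for an interaction of -0.68 ± 0.12 (limma adjusted p = 0.00374). MAL11, a maltose and trehalose transporter, differed the other way, by -0.86 ± 0.09 under N and -1.51 ± 0.09 under C limitation, with an interaction of 0.65 ± 0.13. IMA5, an isomaltase, had 1.24 ± 0.09, and was at least 2.10-fold lower in snf1 C, where it was at background, than in ref C. SUC2, the invertase known as a target of Mig1, read 7.65, 7.15 and 7.47 on snf1 N and 6.80, 7.60 and 7.67 on ref N arrays, and 8.72, 8.73 and 8.73 on snf1 C and 9.43, 9.46 and 9.26 on ref C arrays. The N-limited strains overlap, the snf1 C arrays lie below ref C, and the interaction of 0.72 ± 0.29 was not called (limma adjusted p = 0.175).

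For 14 genes the strains differed in the same direction in both limitations and the interaction was not called, 9 higher and 5 lower in snf1 (56 and 62 with the block). PHO5, the secreted acid phosphatase, read 5.95, 6.18 and 6.23 on snf1 N and 4.90, 4.92 and 4.92 on ref N arrays, and 6.33, 6.38 and 6.25 on snf1 C and 4.95, 4.92 and 4.90 on ref C arrays. It was at background on all 6 ref arrays and above it on all 6 snf1 arrays, and the interaction was -0.18 ± 0.11 (limma adjusted p = 0.404). ERG4, the last enzyme of ergosterol synthesis, was 0.61 ± 0.10 under N and 1.0 ± 0.10 under C limitation. PRM10, a pheromone-regulated membrane protein gene, had 0.82 ± 0.10 and 1.24 ± 0.10, and AGA1, the anchor of the mating agglutinin, 0.43 ± 0.08 and 0.60 ± 0.08. Besides SNF1 the lower ones were MTH1, a co-repressor of hexose transporter genes, at -1.12 ± 0.14 and -0.67 ± 0.14, GSY1, a glycogen synthase, at -0.48 ± 0.09 and -0.55 ± 0.09, REE1 at -0.62 ± 0.12 and -0.51 ± 0.12, and YNR068C at -1.04 ± 0.09 and -1.21 ± 0.09. A missing call does not show equal differences. The interaction was -0.45 ± 0.19 for MTH1, -0.39 ± 0.14 for ERG4 and -0.41 ± 0.14 for PRM10, with errors from the unblocked fit. With the block it was called for each of them (limma adjusted p = 0.0316, 0.00153 and 0.00823).

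Among negative interactions the mitochondrial ribosome had the most called members of the 35 lists. Of 65 mitochondrial ribosomal protein genes 27 were called lower and none higher, against 4.83% of all genes called lower, and with the block 59 were lower and none higher. At an unadjusted p under 0.05 the counts were 43 and 0. The median interaction was -0.55, with -0.15 under N and 0.39 under C limitation. MRPS28, of the small subunit, read 7.66, 7.74 and 7.71 on snf1 N and 7.72, 8.0 and 7.96 on ref N arrays, and 8.62, 8.72 and 8.72 on snf1 C and 7.95, 7.89 and 8.07 on ref C arrays. The snf1 C arrays lie above all others. Its interaction was -0.91 ± 0.12 (limma adjusted p = 4.05e-04). MRPL13 of the large subunit had -0.62 ± 0.08, MRPL9 -0.53 ± 0.07, MRP49 -0.58 ± 0.09 and MRP1 of the small subunit -1.25 ± 0.25. Of the 127 cytosolic ribosomal protein genes limma called 0, against 7 higher and 2 lower with the block and 2 higher at an unadjusted p under 0.05, and their median interaction was 0.01.

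The respiratory chain itself gave a mixed picture that depended on the fit. Calls were 3 higher and 5 lower among 40 genes, but with the block 5 were higher and 30 lower, and the median interaction was -0.40. For this list and the next, the shares over all genes were 6.44% higher and 4.83% lower (15.6% and 22.0% with the block). CYC1, cytochrome c, read 10.27, 10.45 and 10.42 on snf1 N and 10.39, 10.54 and 10.49 on ref N arrays, and 11.21, 11.22 and 11.28 on snf1 C and 10.58, 10.54 and 10.54 on ref C arrays. The snf1 C arrays were highest and the ref C arrays lay close to the N-limited ones, for -0.78 ± 0.09 (limma adjusted p = 2.63e-04). NDE2, an external NADH dehydrogenase, went the other way at 2.11 ± 0.20, as did GUT1, glycerol kinase, which the list also holds, at 1.80 ± 0.18, both lower in snf1 C than in ref C. Of 15 tricarboxylic acid cycle genes 1 was called lower, IDH2 at -0.62 ± 0.17, and none higher (6 and 1 with the block). The IDH2 call was lost in 9 of 24 alternatives (adjusted p up to 0.0912).

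**Figure D3:**
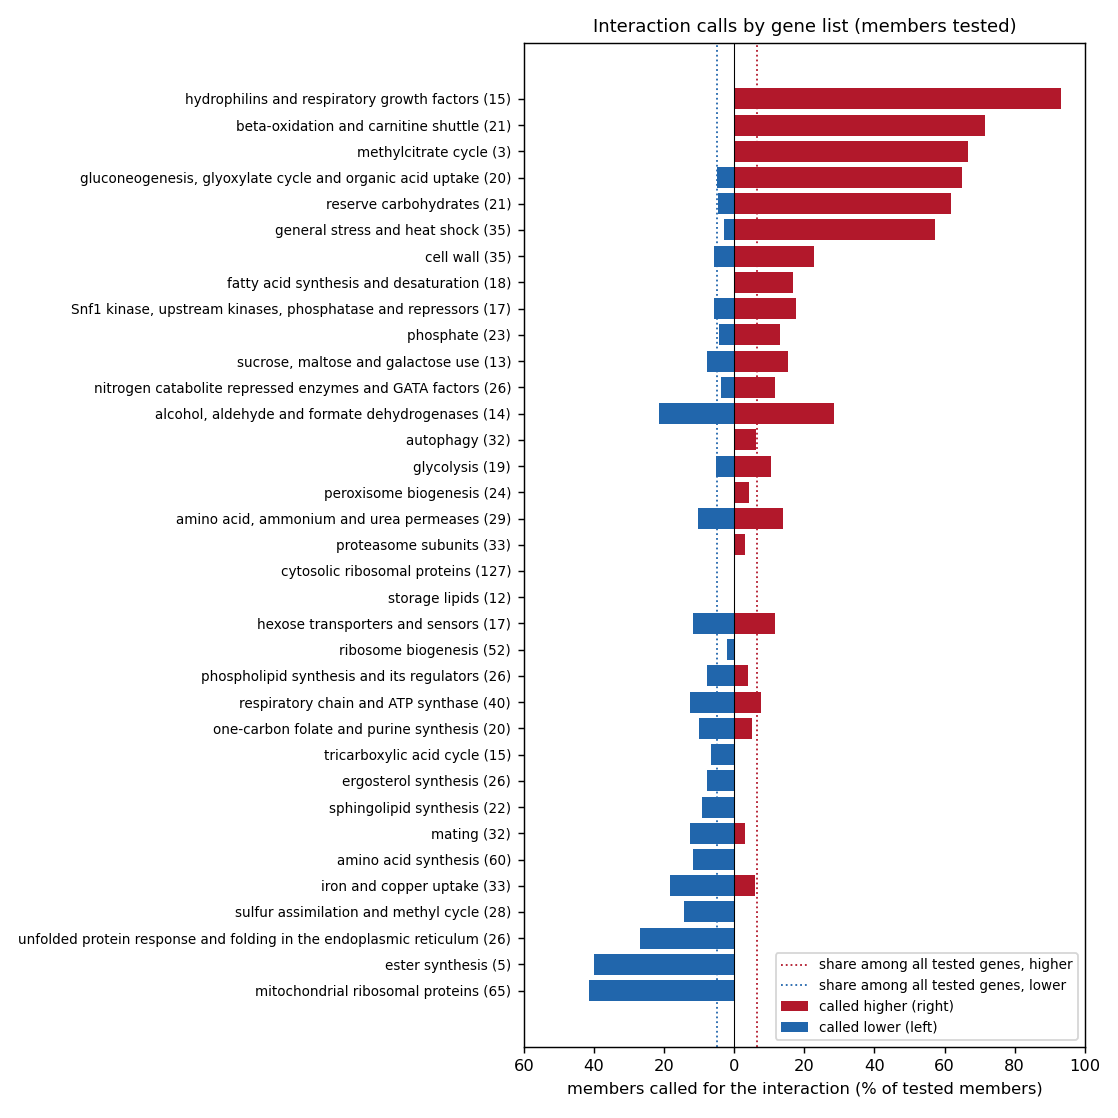
Share of the tested members of each of 35 gene lists that were called for the interaction, higher to the right (red) and lower to the left (blue), in percent of members, with the number tested in brackets. Dotted lines mark the shares over all 5449 genes, 6.44% higher and 4.83% lower. The hydrophilin list (14 of 15 higher) and the mitochondrial ribosomal proteins (27 of 65 lower) lie at the ends. The lists were chosen with earlier results of these data known.

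Of 26 genes of the unfolded protein response and folding in the endoplasmic reticulum 10 were called higher in snf1 C than in ref C, against 10.6% of all genes, and none lower (18 and 4 with the block). For the interaction 7 were called lower, against 4.83% of all genes, and none higher (13 and 2 with the block), with medians of -0.24 for the interaction, 0.03 under N and 0.29 under C limitation. ULI1, a gene induced by that response, read 6.74, 6.62 and 6.46 on snf1 N and 6.41, 6.48 and 6.36 on ref N arrays, and 7.91, 7.92 and 7.94 on snf1 C and 6.10, 6.08 and 6.20 on ref C arrays. The snf1 C arrays stand apart as the only high group, and the interaction was -1.61 ± 0.11 (limma adjusted p = 3.43e-06). SIL1, the exchange factor of the lumenal Hsp70, had -0.94 ± 0.21 and FPR2, a prolyl isomerase, -0.41 ± 0.08. ERO1, the thiol oxidase of the endoplasmic reticulum, had -0.84 ± 0.22, a call lost in 10 of 24 alternatives (adjusted p up to 0.0874).

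Several of the most negative interactions, besides those of HXT7 and ULI1, came from genes with lower levels in ref C than in the other 3 groups. YJL213W, an uncharacterised gene, read 8.09, 8.19 and 8.37 on snf1 N and 8.09, 8.31 and 8.41 on ref N arrays, and 8.07, 8.09 and 8.07 on snf1 C and 5.99, 5.84 and 6.12 on ref C arrays. The ref C arrays were low and the other 3 groups overlap, for an interaction of -2.15 ± 0.15 (limma adjusted p = 3.74e-06). DIP5, the permease for glutamate and aspartate, read 8.67, 8.70 and 9.14 on snf1 N and 9.0, 9.38 and 9.52 on ref N arrays, and 7.08, 7.05 and 6.99 on snf1 C and 5.46, 5.50 and 5.44 on ref C arrays. It was at background in ref C only, was at least 2.71-fold higher in snf1 C than in ref C, and its interaction was -2.04 ± 0.20. IMD2, an IMP dehydrogenase of guanine nucleotide synthesis with close paralogues, read 8.27, 7.98 and 8.01 on snf1 N and 8.15, 7.94 and 8.02 on ref N arrays, and 8.15, 8.11 and 8.20 on snf1 C and 6.86, 6.72 and 6.87 on ref C arrays, with ref C alone low and an interaction of -1.29 ± 0.13. SFG1, a regulator of pseudohyphal growth, had -1.43 ± 0.22, and UTR2, an enzyme that links chitin to glucan in the cell wall, -1.39 ± 0.15. DSE2, a daughter-cell wall protein, had -1.88 ± 0.47, a call lost in 8 of 24 alternatives (adjusted p up to 0.0696).

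Cell wall proteins had calls in both directions. Calls were 8 higher and 2 lower among 35 genes, against 6.44% and 4.83% of all genes. With the block they were 13 and 6, against 15.6% and 22.0%. TIR4, a mannoprotein of the anaerobic and cold-shock family, read 6.23, 6.27 and 6.01 on snf1 N and 6.07, 6.21 and 6.08 on ref N arrays, and 5.85, 5.76 and 5.84 on snf1 C and 7.60, 7.52 and 7.65 on ref C arrays. It was high in ref C alone, for 1.82 ± 0.11. TIR3, a related gene, had 1.60 ± 0.14 and TIP1 1.36 ± 0.16. CWP1, another wall mannoprotein, read 6.94, 7.59 and 7.30 on snf1 N and 6.38, 6.64 and 6.62 on ref N arrays, and 9.17, 9.17 and 9.14 on snf1 C and 7.48, 7.42 and 7.62 on ref C arrays. The snf1 arrays exceed ref in both limitations, more so under C, and the interaction was -0.92 ± 0.20 (limma adjusted p = 0.0121).

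Genes of nitrogen uptake and use were called in both directions. Of 29 amino acid, ammonium and urea permeases 4 were called higher and 3 lower, against 6.44% and 4.83% of all genes (9 and 8 with the block). GAP1, the general amino acid permease, read 11.41, 11.56 and 11.73 on snf1 N and 11.43, 11.51 and 11.70 on ref N arrays, and 8.12, 8.13 and 8.06 on snf1 C and 8.79, 8.82 and 8.61 on ref C arrays. The N-limited strains overlap and the snf1 C arrays lie below ref C, for an interaction of 0.66 ± 0.14 (limma adjusted p = 0.0117). MEP2, the ammonium permease, had 0.67 ± 0.17, a call lost in 8 of 24 alternatives (adjusted p up to 0.0751). DAL5, DAL80, a GATA repressor, and DUR3, the urea transporter, were not called, at -0.05 ± 0.12, -0.14 ± 0.74 and -0.08 ± 0.19. Of 26 nitrogen catabolite repressed enzymes and GATA factors 3 were called higher and 1 lower (6 and 5 with the block). GDH2 and GDH3, glutamate dehydrogenases that break down and make glutamate, had 0.72 ± 0.13 and 0.92 ± 0.14, and ASP1, the cytosolic asparaginase, -0.99 ± 0.13.

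Calls in the synthesis of amino acids and sulfur compounds were negative in the unblocked fit. Of 60 amino acid synthesis genes 7 were called lower, against 4.83% of all genes, and none higher, and with the block 32 were lower and 2 higher, at a median of -0.24. ASN1, an asparagine synthetase, read 11.03, 10.97 and 10.72 on snf1 N and 10.94, 10.86 and 10.59 on ref N arrays, and 10.91, 10.90 and 10.83 on snf1 C and 10.07, 10 and 10.18 on ref C arrays. Its lowest group was ref C, with an interaction of -0.68 ± 0.15 (limma adjusted p = 0.0137). ARG1, of arginine synthesis, had -0.52 ± 0.10 and ARO2, the chorismate synthase, -0.48 ± 0.09. Of 28 sulfur assimilation and methyl cycle genes 4 were called lower and none higher (15 and 1 with the block), at a median of -0.23. Each of the 4 calls was lost in some alternative; SUL1, a sulfate permease, had -1.13 ± 0.31 (limma adjusted p = 0.0376, up to 0.094). In one-carbon folate and purine synthesis 1 of 20 genes was called higher and 2 lower, IMD2 among them (2 and 5 with the block).

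Of 32 mating genes 10 were called higher in snf1 C than in ref C, against 10.6% of all genes, and 1 lower (17 and 3 with the block). MFA1, the precursor gene of the a-factor pheromone, read 11.94, 11.90 and 11.64 on snf1 N and 11.87, 11.81 and 11.60 on ref N arrays, and 10.44, 10.48 and 10.50 on snf1 C and 9.25, 9.33 and 9.21 on ref C arrays. The N-limited arrays were highest and their strains overlap, whereas every snf1 C array exceeds every ref C array, for an interaction of -1.14 ± 0.13 (limma adjusted p = 1.92e-04). MFA2, the second a-factor gene, had -1.17 ± 0.10, STE6, the a-factor exporter, -0.71 ± 0.12 and STE12, the transcription factor of the pathway, -0.48 ± 0.09. For the interaction these 4 mating genes were called lower, against 4.83% of all genes, and 1 higher, STE24 at 0.66 ± 0.17 (13 and 2 with the block).

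Metal and phosphate genes were called in both directions. Of 33 iron and copper uptake genes 2 were called higher and 6 lower, against 6.44% and 4.83% of all genes (5 and 10 with the block). CTR3, a copper transporter, had 0.78 ± 0.09 and FRE4, a ferric reductase, 0.84 ± 0.15. FTR1, the iron permease of the reductive system, had -0.62 ± 0.10, FET4, a low-affinity iron transporter, -0.54 ± 0.11, and AFT1, the iron-sensing activator, -0.44 ± 0.10. FRE7, a reductase, was at background under N limitation and read 7.01, 6.86 and 6.91 in snf1 C and 5.89, 5.89 and 6.10 in ref C. Of 23 phosphate genes 3 were called higher and 1 lower (3 and 6 with the block). PHO84, the high-affinity phosphate transporter, read 6.35, 6.20 and 6.29 on snf1 N and 5.68, 5.71 and 5.85 on ref N arrays, and 7.52, 7.58 and 7.42 on snf1 C and 5.90, 5.95 and 5.88 on ref C arrays. The snf1 arrays exceed ref in both limitations, most under C, for an interaction of -1.07 ± 0.10 (limma adjusted p = 4.01e-05). PHO89, the sodium-coupled transporter, had 0.77 ± 0.16, PHM7 1.80 ± 0.14 and PHM8 0.82 ± 0.10.

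Among genes of lipid synthesis, the pathway that inositol and choline feed, INO1 had the largest interaction. INO1, the inositol-3-phosphate synthase that yeast represses when inositol is present, read 8.02, 7.28 and 7.04 on snf1 N and 8.03, 8.09 and 7.88 on ref N arrays, and 7.26, 7.29 and 7.35 on snf1 C and 9.91, 10 and 9.92 on ref C arrays. The ref C arrays stand well above all the others, and the N-limited strains meet at replicate 1. INO1 was -2.64 ± 0.19 in snf1 relative to ref under C limitation (limma adjusted p = 2.89e-06), -0.56 ± 0.19 under N limitation (adjusted p = 0.351, 0.0275 with the block), and its interaction was 2.08 ± 0.27 (adjusted p = 4.59e-04). Of the 26 phospholipid synthesis genes INO1 was the only one called higher, against 6.44% of all genes. There were 2 called lower, EPT1 and ECT1 of ethanolamine use, against 4.83% of all genes. With the block 4 were higher and 10 lower, against 15.6% and 22.0% of all genes. The calls of EPT1 (-0.30 ± 0.08) and ECT1 (-0.37 ± 0.10) were lost in 15 and 9 of 24 alternatives.

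Other genes under the same inositol-sensitive activators were not called in the unblocked fit. CHO1, phosphatidylserine synthase, had -0.44 ± 0.13 (limma adjusted p = 0.0521), called with the block (adjusted p = 9.25e-04). CHO2 and OPI3, which methylate phosphatidylethanolamine to phosphatidylcholine, had 0.06 ± 0.15 and -0.17 ± 0.18, and the transporters ITR1 for inositol and HNM1 for choline had -0.09 ± 0.14 and -0.26 ± 0.43. Of these 4 HNM1 was called with the block (adjusted p = 0.018). The regulator genes INO2, INO4 and OPI1 were not called either, at adjusted p of 0.156, 0.763 and 0.127, but with the block INO2 (adjusted p = 0.0147) and OPI1 (0.0132) were called higher.

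In fatty acid synthesis 3 of 18 genes were called higher, against 6.44% of all genes, and none lower (6 and 3 with the block, against 15.6% and 22.0%). ACC1, the acetyl-CoA carboxylase inhibited by Snf1, read 11.20, 11.11 and 11.07 on snf1 N and 11.09, 11.04 and 11.08 on ref N arrays, and 11.03, 11.00 and 10.95 on snf1 C and 11.33, 11.34 and 11.25 on ref C arrays. The snf1 C arrays were lowest and ref C highest, for 0.38 ± 0.08 (limma adjusted p = 0.0134). FAS1, which encodes the beta subunit of the synthase, had 0.49 ± 0.10, and MGA2, an activator of the desaturase gene OLE1, 0.72 ± 0.13. FAS2, the alpha subunit, and OLE1 were not called, at 0.38 ± 0.24 and 0.44 ± 0.15, although OLE1 was with the block (adjusted p = 9.10e-04). Of 26 ergosterol genes 2 were called lower, ERG10 at -0.53 ± 0.08 and ERG27 at -0.48 ± 0.11, and none higher (8 and 7 with the block). Of 22 sphingolipid genes 2 were lower (6 lower and 2 higher with the block), both in calls lost in some alternative. Of 12 storage lipid genes limma called 0 (1 higher and 2 lower with the block, and 1 in each direction at an unadjusted p under 0.05). In ester synthesis 2 of 5 genes were lower, with and without the block, EEB1 at -0.98 ± 0.13 and ATF2 at -0.47 ± 0.10.

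Lists of growth, turnover and sugar use are set against 6.44% of all genes called higher and 4.83% lower (15.6% and 22.0% with the block). Of 52 ribosome biogenesis genes 1 was called lower, UTP4 at -0.55 ± 0.12, and none higher (4 and 4 with the block). Of 33 proteasome genes 1 was higher, RPN4, the activator of the others, at 0.58 ± 0.14, and none lower, with and without the block. Calls of UTP4 and RPN4 were lost in 2 and 9 of 24 alternatives. Of 32 autophagy genes 2 were higher, ATG34, a vacuolar import receptor, at 1.51 ± 0.24 and ATG7, a conjugating enzyme, at 0.54 ± 0.10, and none lower (10 and 1 with the block). In glycolysis 2 of 19 genes were higher and 1, HXK1, lower (4 and 5 with the block), and in sucrose, maltose and galactose use 2 of 13 were higher and 1 lower (3 and 2 with the block).

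The nearest comparison is the same interaction at low inositol-choline, and the difference between them was tested in a fit of all 24 arrays. Calls and errors at the low level also came from that fit, but those at the high level from the high-level arrays alone. These are not like measures, as the fit of all 24 arrays called 1121 genes at the high level. That fit pools the spread of both levels. The median replicate standard deviation of the N-limited groups was 0.184 and 0.186 at the high level, but 0.0334 and 0.0415 at the low level. Most genes kept their direction: of the 614 genes called at the high level 477 were also called at the low level, against 1062 of all genes (19.5%), 460 in the same and 17 in the opposite direction. The interaction itself differed between the levels for 192 genes (3.52%), 113 higher and 79 lower at the high level, and for 721 (13.2%) with the block, 394 higher (7.23%) and 327 lower (6.0%). Of the 614 genes 91 were among the 192. The 2 interactions share no array, but the error at the low level is drawn from the arrays of both levels.

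INO1 had the largest such difference. At the low level it read 11.32, 11.21 and 11.23 on snf1 N and 11.68, 11.67 and 11.45 on ref N arrays, and 11.57, 11.39 and 11.28 on snf1 C and 9.94, 9.96 and 10.10 on ref C arrays. There the ref C arrays were the lowest, whereas at the high level they were the highest, although their ranges overlap between the levels. The interaction was thus -1.75 ± 0.22 at the low level and 2.08 ± 0.27 at the high level, with errors from the different fits named above. The difference was 3.84 ± 0.31 (limma adjusted p = 1.70e-07). CRC1, the mitochondrial carnitine transporter, had 0.40 ± 0.09 at the high level and -2.45 ± 0.11 at the low level, and MLS1 2.66 ± 0.19 and -0.22 ± 0.17. FIT2 and FIT3, cell wall mannoproteins that retain iron siderophores, had 0.25 ± 0.20 and 0.85 ± 0.26 at the high level, not called in the unblocked fit (limma adjusted p = 0.602 and 0.0649) but called with the block (0.0176 and 9.67e-06). At the low level, where the snf1 C arrays were high, they had -3.07 ± 0.33 and -2.19 ± 0.40.

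In the other direction ULI1 had -1.61 ± 0.11 at the high level and 1.16 ± 0.09 at the low level, a difference of -2.77 ± 0.12 (limma adjusted p = 3.30e-11). ULI1 read 8.06, 8.14 and 8.16 on snf1 N and 6.47, 6.47 and 6.51 on ref N arrays, and 6.68, 6.58 and 6.70 on snf1 C and 6.26, 6.16 and 6.10 on ref C arrays at the low level. Its high group was thus snf1 C at the high level and snf1 N at the low level. ERO1 and PHO84 were also negative at the high level and positive at the low level, at 0.93 ± 0.18 and 1.10 ± 0.10 there. YET2, an endoplasmic reticulum membrane protein gene, had -0.57 ± 0.37 at the high level (limma adjusted p = 0.476, 9.77e-04 with the block) and 1.69 ± 0.28 at the low level. FDH1 was positive at both, at 1.58 ± 0.13 and 4.18 ± 0.24.

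By list, counts are set against 2.07% of all genes called higher at the high level and 1.45% lower. Of 26 unfolded protein response genes 11 were lower at the high level and none higher (median difference -0.48). Of 26 ergosterol genes 8 were lower and none higher (median -0.57). In beta-oxidation 9 of 21 were higher and none lower (median 0.53), in mating 7 of 32 were higher and none lower (median 0.36), and in iron and copper uptake 6 of 33 were higher and 1 lower (median 0.31). The hydrophilin list, in which 14 of 15 genes were called higher at each level (against 8.74% of all genes at the low level), had none higher and 1 lower in the difference. Mitochondrial ribosomal protein genes, 27 called lower at the high and 26 at the low level (against 10.8% of all genes there), had none higher and 1 lower. Counts of interaction calls at the high and at the low level come from the different fits named above.

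**Figure D4:**
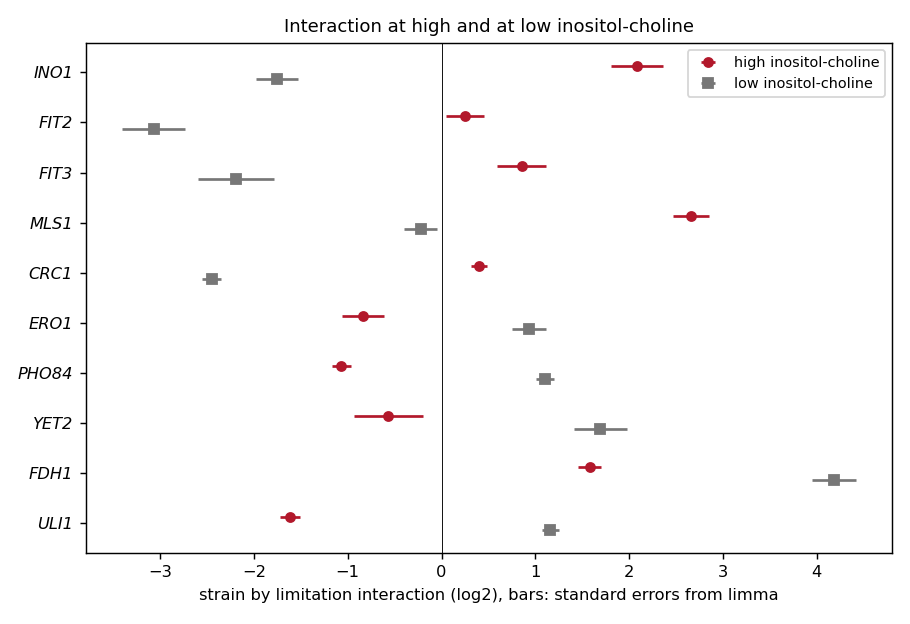
Strain by limitation interaction (log2, horizontal axis) at high (red circles) and low (grey squares) inositol-choline. Shown are the 10 genes whose interaction differed most between levels, 5 in each direction. Bars are standard errors from limma, for circles from the high-level arrays alone and for squares from all 24 arrays. INO1 lies at 2.08 and -1.75, CRC1 at 0.40 and -2.45 and ULI1 at -1.61 and 1.16, on opposite sides of 0, whereas FDH1 is positive at both levels.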

How the data were processed

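Transcript levels were measured on 24 one-colour Affymetrix arrays, grouped by title into 8 groups of 3; the number of arrays limits the precision. The deposited log2 values (4.82 to 13.25, 10928 probe sets) are the authors' PLIER summaries, as the submitters' processing notes name it, with settings that the sources used here do not give. Base 2 is assumed from the range, and every fold rests on it. Array medians lay at 5.93 to 6.00, and nothing was rescaled. The annotation gave 7244 probe sets 1 symbol, 1 several and 3683 none. Of these 5498 matched S. cerevisiae genes by identifier; 47 genes had several, of which the brightest on average was used, leaving 5449 genes. The background level, 5.59, is the 95th percentile of the means of 1746 named probe sets without an S. cerevisiae gene, and 274 genes averaged below it. A gene was called at background in a group when all its arrays lay below that percentile on the array, and a fold against such a group uses that floor.

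Group means were fitted to the 12 arrays at high inositol-choline with limma 3.58.1 in R 4.3.3 (lmFit, eBayes, 8 residual and 10.43 total degrees of freedom), and p-values were Benjamini-Hochberg adjusted over all genes. The difference between levels and the interaction at the low level came from all 24 arrays (16 and 18.77). The replicate block was added within each limitation (4 and 9.67), because same-numbered N-limited arrays deviated together (r over genes 0.901, 0.784 and 0.868), unlike C-limited ones (0.032, 0.100 and -0.049). Replicates 2 and 3 under N limitation also correlated across numbers (0.671 and 0.574), and replicate 1 ran against both (-0.741 to -0.868). These values thus show mostly replicate 1 apart from the others, and the labels do not state a pairing. The fit was tested on simulated data. Alternatives were other normalizations, filters, moderation, weights and blocks, the 3' minus 5' signal, all 24 arrays, and leaving out arrays.

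The members and the 35 lists were chosen with earlier results of these data known. The wrongly matched RPP1 and MRP8 were taken out of the ribosomal lists after their counts were seen, which left the interaction calls as they were. Named are fixed genes, the 10 largest interactions in each direction, up to 4 members per list and direction by adjusted p, up to 5 per pattern and the 5 largest differences between levels in each direction.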

Additional observations from a re-analysis of the deposited data

Results flagged for a closer look

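For 10 genes the interaction at high inositol-choline differed from that at low inositol-choline in the fit of all 24 arrays, 5 in each direction, and these are the largest such differences among called genes. INO1 differed by 3.84 ± 0.31, FIT2 by 3.32 ± 0.47, FIT3 by 3.04 ± 0.57, CRC1 by 2.85 ± 0.15 and MLS1 by 2.89 ± 0.24 (log2, high minus low). For INO1 and CRC1 the interaction was called at both levels, in opposite directions. Without the block, it was called for FIT2 and FIT3 at the low level alone and for MLS1 at the high level alone. With the block FIT2 and FIT3 were also called at the high level. High-level calls came from the high-level arrays alone and low-level calls from all 24 arrays, so they are not like measures.

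The remaining 5 genes had a lower interaction at the high level. ULI1 differed by -2.77 ± 0.12, FDH1 by -2.60 ± 0.33, YET2 by -2.26 ± 0.40, PHO84 by -2.17 ± 0.14 and ERO1 by -1.77 ± 0.25. PHO84 read 6.35, 6.20 and 6.29 on snf1 N and 5.68, 5.71 and 5.85 on ref N arrays, and 7.52, 7.58 and 7.42 on snf1 C and 5.90, 5.95 and 5.88 on ref C arrays at the high level, and 9.79, 10.01 and 10.07 on snf1 N and 6.15, 6.04 and 6.16 on ref N arrays, and 8.59, 8.59 and 8.61 on snf1 C and 5.81, 5.91 and 5.86 on ref C arrays at the low level. At the low level its snf1 arrays stand above ref in both limitations, as they do at the high level, but the larger gap is under N limitation there and under C limitation at the high level. ERO1 read 8.86, 8.30 and 8.39 on snf1 N and 8.81, 8.45 and 8.26 on ref N arrays, and 9.47, 9.34 and 9.42 on snf1 C and 8.56, 8.52 and 8.62 on ref C arrays at the high level, and 9.75, 9.67 and 9.81 on snf1 N and 8.58, 8.39 and 8.50 on ref N arrays, and 8.79, 8.64 and 8.83 on snf1 C and 8.57, 8.44 and 8.30 on ref C arrays at the low level. The group that stood out was snf1 C at the high level and snf1 N at the low level.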

How the results depend on the processing

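The number of calls and the balance of their directions depended on the fit. The interaction was called for 614 genes, and for 1121 with all 24 arrays in one fit, 2027 with array quality weights, 2052 with the replicate block within each limitation, 2199 with the block within the N-limited arrays only, 1686 without both replicate 1 arrays under N limitation and 1834 with the 3' minus 5' signal as a covariate. Higher calls made up 57.2% of the 614, but 41.7% with weights, 41.5% and 41.1% with these blocks, 43.5% without the pair and 42.9% with the covariate. With the replicate number as a block across the 4 groups the counts stayed close to those without a block, at 664 genes (56.5% higher) for the interaction, 49 for the N-limited and 1227 for the C-limited difference. Higher calls made up 68.4% of the N-limited calls, and 46.4% with the block within each limitation. The N-limited difference, at 57 genes, gave 226, 357, 528, 743, 328 and 432 under the same 6 settings in that order, and 5 with only the 6 arrays compared. The C-limited difference, at 1132 genes, gave 1789, 3444, 2840, 2968, 2746 and 2618, and 3186 with only the 6 arrays compared. The difference between levels, at 192 genes, gave 721 with the block and 615 without the pair. Array weights used the gene-by-gene method, chosen after the default gave a convergence warning and its counts were seen; the block within N-limited arrays and the fits of 6 arrays were also chosen after seeing the data.

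Leaving out each array in turn gave 437 to 763 genes for the interaction, 31 to 85 for the N-limited difference, 790 to 1451 for the C-limited one and 158 to 313 for the difference between levels. The N-limited count fell to 31 without replicate 2 of snf1 N, 33 without replicate 2 of ref N and 34 without replicate 3 of ref N, and the last count rose to 313 without replicate 1 of snf1 N. Of 137 named genes called for the interaction, none reversed under these alternatives, 128 stayed called under quantile normalization (577 genes in all), 134 after centring each array (624), and 108 to 134 when 1 array was left out. All 614 called genes were also called with the block and without the pair. Dim signal limits genes at background, whose differences cannot be resolved, and the noisier N-limited arrays limit how small a difference could be called there. The cause of the changes in counts was not tested.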
